A study of Mus musculus with 6 samples.

Results

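The interneuron subtype genes are 10 genes whose mRNAs mark GABAergic interneurons and their main subtypes. They are Gad1, Gad2, Sst, Pvalb, Vip, Npy, Cck, Calb2, Reln and Lhx6, and they were found by gene symbol among the 54752 genes of the count tables. All 10 were present and all 10 passed the filter on low counts, which left 18617 genes for testing. They were described in bulk RNA-seq of the hippocampus of 3 sham mice and 3 mice with bilateral carotid artery stenosis (BCAS), a model of cerebral hypoperfusion, to ask how each gene differed between the groups and how the 8 subtype genes compared with Gad1 and Gad2.

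Every animal was a male C57BL/6 mouse (C57BL/6 J in the methods) of WT genotype, with an age of 14 weeks in the labels. In BCAS mice both common carotid arteries were narrowed with microcoils, more tightly on the right side. Sham surgery left out the coils and was otherwise identical. The right hippocampus was taken whole, 3 weeks after surgery, from mice that survived the operation. Each library came from 1 mouse. In such bulk tissue, fewer cells of a type and less RNA per cell cannot be told apart.

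GABAergic interneurons are the local inhibitory neurons of the hippocampus. Gad1 and Gad2 encode GAD67 and GAD65, the enzymes that make GABA from glutamate, and nearly all interneurons express them. Subtypes are told apart by neuropeptides (somatostatin, vasoactive intestinal peptide, neuropeptide Y and cholecystokinin), by the calcium-binding proteins parvalbumin and calretinin, by the secreted glycoprotein reelin and by the ganglionic eminence in which the cells were born. Several of these genes are not restricted to interneurons. Cck is also expressed by pyramidal neurons, Calb2 by mossy cells of the mouse hilus and by Cajal-Retzius cells, and Reln by Cajal-Retzius cells.

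Promoter sequence is shown for the members that hold the core of the cyclic AMP response element, since the somatostatin gene is a classic example of a gene controlled through this element. The motif TGACG was searched on both strands in the 100 bases before each RefSeq start in GRCm38.p6, the sequence of mm10. Of the 10 members, 9 had an entry, and the motif was found in 4 of them. The stretches of 30 bases are printed 5′ to 3′ on the strand of the gene, with the motif, or its reverse complement CGTCA, in capitals.
Sst: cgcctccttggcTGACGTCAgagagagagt
Cck: cctgctggactgCGTCAgcactgggtaaac
Vip: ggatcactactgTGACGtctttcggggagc
Gad2: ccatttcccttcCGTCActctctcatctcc
The Sst stretch lies at chr16:23890875-23890904 on the minus strand. It holds the full palindrome TGACGTCA, 48 bases before the start, in which TGACG is read on both strands. The Cck stretch lies at chr9:121495724-121495753 on the minus strand, with its match 47 bases before the start. The Vip stretch lies at chr10:5639127-5639156 on the plus strand, with its match 79 bases before the start. The Gad2 stretch lies at chr2:22622282-22622311 on the plus strand, with its match 33 bases before the start. The Sst and Gad2 stretches fall inside the span of the gene model used for counting. TGACG was present in 3442 of 32851 RefSeq windows of this length (10.5%) and TGACGTCA in 379 (1.15%). No TGACG was found in the windows of Gad1, Pvalb, Npy, Reln and Lhx6, which says only that these letters are not there.

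The libraries held 29652456 to 35607098 counts, and a count of 3 corresponded to 0.0874 to 0.0994 CPM (counts relative to the library total, scaled with edgeR's TMM factors). All members were far above this level. Markers of other cells moved between the groups. Counts of markers that rose or fell, here and below, are at an adjusted P under 0.05 in edgeR. They are to be read against the 18.0% of all tested genes that were higher in BCAS mice and the 13.2% that were lower. All 8 microglia markers rose, and their summed level went from 310-322 CPM in sham mice to 1880-3040 CPM in BCAS mice. Of 7 astrocyte markers, 6 rose, and their sum went from 4370-4670 to 9360-9890 CPM. Of 10 pan-neuronal markers, 7 fell and none rose, with a median log2 fold change of -0.57. When any one of the sham mice or BCAS mouse 1 was left out, 4 fell. Without BCAS mouse 2 the count was 10, and without BCAS mouse 3 it was 6. The tissue pieces also differed within groups. The summed choroid plexus markers were 985, 4070 and 69.8 CPM in sham mice and 5910, 40.3 and 3210 CPM in BCAS mice 1, 2 and 3. The sum of 4 cortical layer markers, a list chosen after values were seen, was 112, 114 and 124 CPM in sham mice and 97.2, 142 and 116 CPM in BCAS mice. The part of these differences in the results below was not tested. Libraries were also scaled by neuronal genes below. That changes the common scale of a library and cannot separate the sources of a gene's reads.

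Per gene length, the peptide genes Sst and Cck were by far the most abundant members. In sham mice the level in RPKM (CPM per kilobase of gene length, computed here) was 306 ± 36.7 for Sst and 277 ± 26.7 for Cck (SD, n = 3). Npy followed with 54.0 ± 3.58 RPKM, Gad1 with 51.3 ± 2.82 and Gad2 with 31.0 ± 0.571. Pvalb stood at 26.8 ± 1.91, Calb2 at 20 ± 0.121, Vip at 6.58 ± 0.493, Lhx6 at 4.95 ± 1.05 and Reln at 2.59 ± 0.161 RPKM. The sham values overlapped between the neighbours Sst and Cck, Npy and Gad1, and Vip and Lhx6, and the other neighbours in this order did not overlap. In BCAS mice Sst at 143 ± 40.6 and Cck at 137 ± 27.8 RPKM still led the order. By mean, Gad1 at 37.2 ± 1.45 was then next to Npy at 30.1 ± 6.89 RPKM, and Calb2 at 18.1 ± 4.98 next to Pvalb at 17.9 ± 2.10 RPKM. The BCAS values overlapped within each of these pairs and between Sst and Cck, so their order by mean is not beyond the spread between mice.

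**Figure D1:**
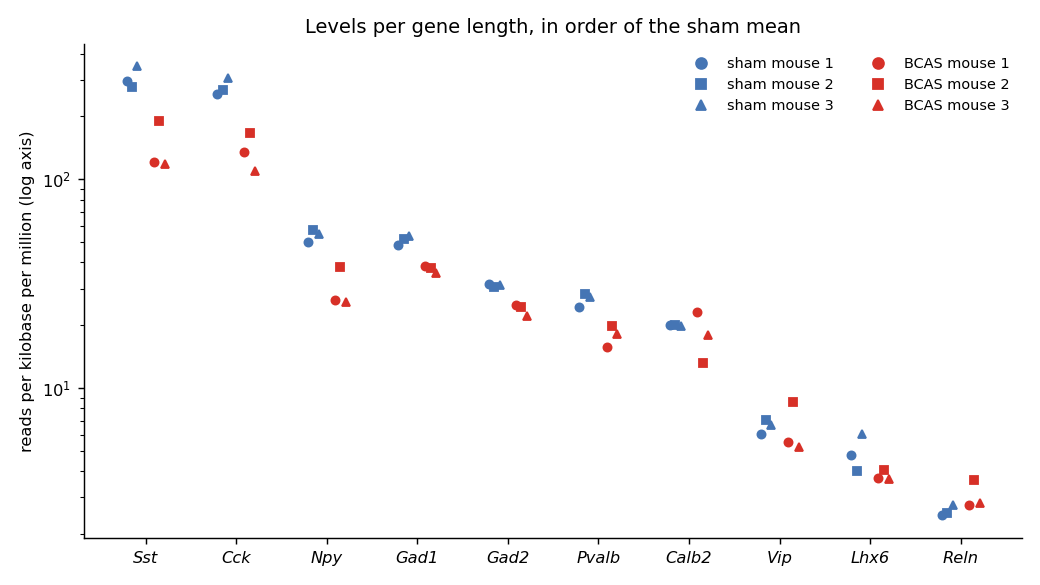
Level of each member in RPKM on a log axis, with members in the order of their sham mean and a point per mouse (blue sham, red BCAS). Sst and Cck stand above the other members in every mouse, and Reln has the lowest mean in both groups.

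GABA synthesis genes fell in BCAS mice. Gad1 (ENSMUSG00000070880.10, mm10 chr2:70553072-70602014, plus strand, 21 exon blocks) had 369, 397 and 411 CPM in sham mice 1 to 3 and 294, 287 and 272 CPM in BCAS mice 1 to 3. Every BCAS value lay below every sham value, and the mean went from 392 ± 21.5 to 284 ± 11.1 CPM (SD, n = 3 each). The log2 fold change was -0.46 (SE 0.08, adjusted P = 0.00311, edgeR), which is a level that fell by 27.5%. Gad2 (ENSMUSG00000026787.3, chr2:22622205-22693874, plus strand) had 186, 179 and 183 CPM in sham mice and 148, 144 and 130 CPM in BCAS mice. The groups again did not overlap, and the log2 fold change was -0.38 (SE 0.07, adjusted P = 0.00587, edgeR). The log2 ratio of Gad1 to Gad2 was 1.1 ± 0.1 in sham and 1.02 ± 0.04 in BCAS mice, and the groups overlapped (exact permutation P = 0.4, two-sided, adjusted 0.64 over 8 gene pairs). Gad1os, an antisense gene, lies over Gad1 but shares no exonic base with it.

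**Figure D2:**
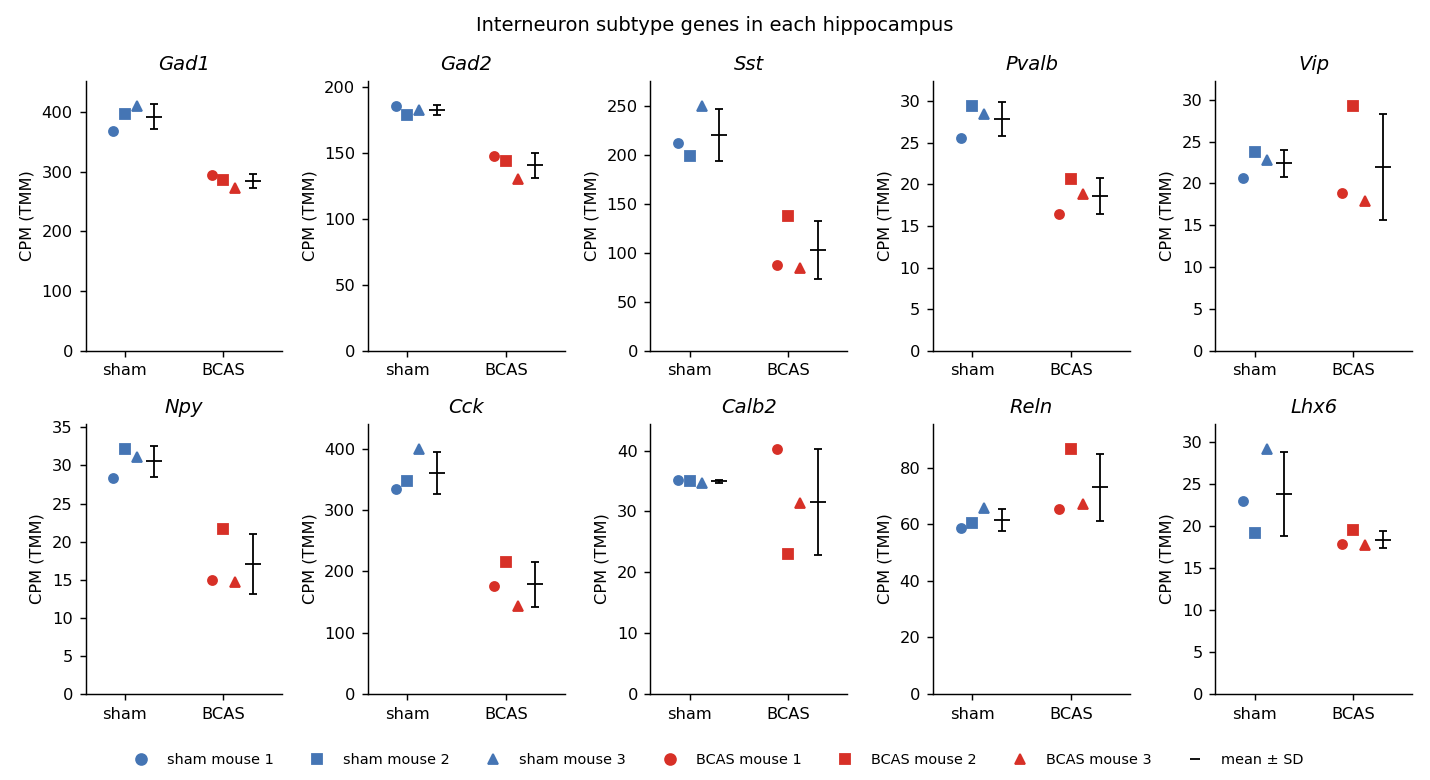
CPM of each member in every mouse, one panel per gene with its own axis from 0, with symbols for mice 1 to 3 and bars for the mean and SD of each group. Gad1, Gad2, Sst, Pvalb, Npy and Cck have all 3 BCAS mice below all 3 sham mice, and Vip, Calb2, Reln and Lhx6 overlap.

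Of the 4 neuropeptide genes, Sst, Cck and Npy fell and Vip did not pass the test. Sst encodes somatostatin, the inhibitory peptide of dendrite-targeting interneurons such as O-LM and HIPP cells. It lies at chr16:23889573-23890958 on the minus strand (ENSMUSG00000004366.4, 2 exon blocks). Sst had 212, 199 and 250 CPM in sham mice and 87.2, 137 and 84.8 CPM in BCAS mice. BCAS mouse 2 was the highest of its group and still lay below the lowest sham mouse. The mean went from 221 ± 26.4 to 103 ± 29.3 CPM, with a log2 fold change of -1.10 (SE 0.18, adjusted P = 0.00232, edgeR), and the level fell by 53.4%.

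Cck encodes cholecystokinin, the peptide of a class of basket cells and also an mRNA of pyramidal neurons. Cck (ENSMUSG00000032532.7, chr9:121489824-121495694, minus strand) had 334, 348 and 400 CPM in sham mice and 176, 216 and 144 CPM in BCAS mice. All BCAS mice lay far below all sham mice, with BCAS mouse 3 the lowest. Its log2 fold change was -1.02 (SE 0.14, adjusted P = 0.00112, edgeR), and the level fell by 50.5%. Since Cck is shared with pyramidal neurons, the excitatory markers stand beside it. Of 8 excitatory markers 5 fell and none rose, where 13.2% of all tested genes fell, and their median log2 fold change was -0.67. Neurod6, a pyramidal neuron transcription factor, fell from 250 ± 22.0 to 84.9 ± 29.9 CPM. The count of 5 became 3 without sham mouse 1 or sham mouse 3 and 2 without sham mouse 2. It was 6 without BCAS mouse 2 or BCAS mouse 3. The part of excitatory neurons in the Cck result was not tested.

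Npy encodes neuropeptide Y, found in neurogliaform, ivy and many somatostatin cells. Npy (ENSMUSG00000029819.6, chr6:49822710-49829507, plus strand) had 28.3, 32.2 and 31.1 CPM in sham mice and 14.9, 21.6 and 14.7 CPM in BCAS mice. The groups did not overlap, and BCAS mouse 2 was again the highest of its group. On the log2 scale the fold change was -0.84 (SE 0.16, adjusted P = 0.00416, edgeR), and the level fell by 44.2%.

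Vip encodes vasoactive intestinal peptide, the marker of interneurons that mostly inhibit other interneurons. Vip (ENSMUSG00000019772.5, chr10:5639218-5647617, plus strand) had 20.6, 23.8 and 22.8 CPM in sham mice and 18.8, 29.3 and 17.9 CPM in BCAS mice. BCAS mouse 2 was above every sham mouse and the other BCAS mice were below every sham mouse. The log2 fold change was -0.03 (SE 0.18, adjusted P = 0.929, edgeR), and without BCAS mouse 2 it was -0.30 (adjusted P = 0.0764, edgeR). On leaving out each of the other mice it lay between -0.09 and 0.10.

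Of the calcium-binding protein genes, Pvalb fell and Calb2 did not pass the test, and the difference between them was not tested. Pvalb encodes parvalbumin, the marker of fast-spiking basket and axo-axonic cells, and lies at chr15:78191114-78206400 on the minus strand (ENSMUSG00000005716.16). Pvalb had 25.6, 29.5 and 28.5 CPM in sham mice and 16.4, 20.7 and 18.9 CPM in BCAS mice. The groups did not overlap, the log2 fold change was -0.58 (SE 0.12, adjusted P = 0.00622, edgeR) and the level fell by 33.0%.

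Calb2 encodes calretinin and lies at chr8:110137502-110168210 on the minus strand (ENSMUSG00000003657.9). Calb2 had 35.1, 35.0 and 34.7 CPM in sham mice and 40.3, 23.0 and 31.4 CPM in BCAS mice. The sham mice were nearly alike, while BCAS mouse 1 lay above them and BCAS mice 2 and 3 below. The log2 fold change was -0.15 (SE 0.17, adjusted P = 0.563, edgeR). It was -0.36 without BCAS mouse 1 (adjusted P = 0.0862, edgeR) and turned to 0.03 without BCAS mouse 2 (adjusted P = 0.871, edgeR). The summed Cajal-Retzius markers were 9.47, 9.21 and 6.58 CPM in sham mice and 16.4, 6.56 and 13.0 CPM in BCAS mice. Within the BCAS group Calb2, the Cajal-Retzius markers and the choroid plexus markers were all highest in mouse 1 and lowest in mouse 2, and the part of these markers in the Calb2 values was not tested. Of the 4 Cajal-Retzius markers 1 rose, Ebf3, where 18.0% of all tested genes rose. Ebf3 no longer passed without sham mouse 2, sham mouse 3 or BCAS mouse 3. Of the 2 mossy cell markers Calcrl rose and Drd2 fell, and the Drd2 call was lost in 5 of the 6 fits that left out 1 mouse, all but that without BCAS mouse 2.

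Reln encodes reelin, secreted in the adult hippocampus by interneurons and Cajal-Retzius cells. Reln (ENSMUSG00000042453.14, chr5:21884454-22344702, minus strand, 67 exon blocks) had 58.5, 60.3 and 65.8 CPM in sham mice and 65.3, 86.7 and 67.0 CPM in BCAS mice. BCAS mouse 2 was clearly the highest, and BCAS mouse 1 lay below the highest sham mouse. Its log2 fold change was 0.25 (SE 0.11, adjusted P = 0.133, edgeR), and without BCAS mouse 2 it was 0.10 (adjusted P = 0.389, edgeR). Of its 23738 exonic bases, 246 are shared with the gene Gm10475 on the other strand.

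Lhx6 encodes the LIM homeodomain factor of interneurons born in the medial ganglionic eminence, the source of most Sst and Pvalb cells. Lhx6 (ENSMUSG00000026890.19, chr2:36081953-36105408, minus strand) had 23.0, 19.2 and 29.2 CPM in sham mice and 17.9, 19.5 and 17.7 CPM in BCAS mice. The sham mice were spread widely and sham mouse 2 lay below BCAS mouse 2. The log2 fold change was -0.38 (SE 0.15, adjusted P = 0.0895, edgeR). It rested on single sham mice in both directions, at -0.51 without sham mouse 2 (adjusted P = 0.0362, edgeR) and -0.21 without sham mouse 3 (adjusted P = 0.286, edgeR). Of the 4805 exonic bases of Lhx6, 104 are shared with the gene Gm27953 on the same strand.

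In all, 6 of the 10 members were lower in BCAS mice at an adjusted P under 0.05, where 13.2% of all tested genes were lower. None was higher, where 18.0% of all tested genes were higher, and 0 members were higher at an unadjusted P under 0.05 or with DESeq2 or limma-voom. The same 6 members had all BCAS mice below all sham mice, as did 22.7% of tested genes, and no member had the reverse order, seen in 25.3%. Sst and Cck also had an absolute log2 fold change over 1, a fall that 0.999% of tested genes passed (8.47% passed the same thresholds upwards). This count of 2 rests on values near the threshold. It was 3 without BCAS mouse 2, with Npy at -1.05, 1 without sham mouse 3 or BCAS mouse 1, and 0 without BCAS mouse 3, with Sst at -0.98 and Cck at -0.88. The median log2 fold change of the members was -0.42 and that of all tested genes 0.02.

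The members were then compared with Gad1 and Gad2. Each library was scaled by the mean log2 count of Gad1 and Gad2, so that a log2 fold change gives how far a gene's difference departs from that of the GABA synthesis genes. Sst, Cck and Npy fell further than Gad1 and Gad2, Reln was higher relative to them, and Pvalb, Lhx6, Vip and Calb2 did not pass the test. The 3 lower members are to be read against 1.62% of tested genes that were lower on this scale. The higher one is to be read against 50.9% that were higher, and the median of all tested genes on this scale was 0.44.

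For every 100 reads of Gad1 and Gad2 together there were 38.3, 34.6 and 42.2 reads of Sst in sham mice and 19.7, 31.7 and 21.1 in BCAS mice. BCAS mouse 2 lay close to the sham mice, and the groups did not overlap. The difference relative to Gad1 and Gad2 was -0.68 on the log2 scale (SE 0.17, adjusted P = 0.00812, edgeR). For Cck there were 60.3, 60.5 and 67.5 reads per 100 in sham mice and 39.9, 50.1 and 35.8 in BCAS mice, without overlap. The difference for Cck was -0.60 (SE 0.12, adjusted P = 0.00329, edgeR).

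For Npy there were 5.11, 5.60 and 5.25 reads per 100 in sham mice and 3.38, 5.0 and 3.66 in BCAS mice. BCAS mouse 2 lay just below the lowest sham mouse. The difference for Npy was -0.42 (SE 0.15, adjusted P = 0.0432, edgeR), close to the threshold. It no longer passed without any one of the sham mice, BCAS mouse 1 or BCAS mouse 3, and ranged from -0.61 to -0.31 over all alternatives (adjusted P from 0.00368 to 0.126, edgeR, limma and DESeq2).

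For Reln there were 10.5, 10.5 and 11.1 reads per 100 in sham mice and 14.8, 20.1 and 16.7 in BCAS mice. All BCAS mice lay above all sham mice, and the difference was 0.67 (SE 0.11, adjusted P = 0.00122, edgeR). Vip had 3.71, 4.14 and 3.84 reads per 100 in sham mice and 4.26, 6.79 and 4.45 in BCAS mice. The groups did not overlap, and the difference of 0.39 did not pass the test (SE 0.18, adjusted P = 0.0914, edgeR). It was 0.51 without BCAS mouse 1 (adjusted P = 0.0418, edgeR) and 0.15 without BCAS mouse 2 (adjusted P = 0.343, edgeR).

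Pvalb had 4.62, 5.12 and 4.80 reads per 100 in sham mice and 3.71, 4.80 and 4.70 in BCAS mice. Its difference was -0.15 (SE 0.13, adjusted P = 0.339, edgeR), and -0.04 without BCAS mouse 1 (adjusted P = 0.782, edgeR). Lhx6 had 4.15, 3.34 and 4.92 reads per 100 in sham mice and 4.05, 4.52 and 4.39 in BCAS mice, with a difference of 0.05 (SE 0.15, adjusted P = 0.807, edgeR). The Lhx6 difference was -0.08 without sham mouse 2 and 0.20 without sham mouse 3, and neither passed the test. Calb2 had 6.33, 6.08 and 5.85 in sham mice and 9.14, 5.33 and 7.82 in BCAS mice, with a difference of 0.27 (SE 0.17, adjusted P = 0.211, edgeR). The Calb2 difference was 0.47 without BCAS mouse 2 (adjusted P = 0.00774, edgeR) and 0.10 without BCAS mouse 1 (adjusted P = 0.631, edgeR). These P values do not show that the ratios of these genes were equal in both groups.

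In the log2 ratio per mouse, the groups did not overlap for Sst, Npy and Cck, with BCAS mice lower as in 2.86% of tested genes. They did not overlap for Vip and Reln, with BCAS mice higher as in 59.6% of tested genes. Each of these 5 gave an exact permutation P of 0.1, the smallest that 3 mice against 3 can give (two-sided, adjusted 0.16 over the 8 members).

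**Figure D3:**
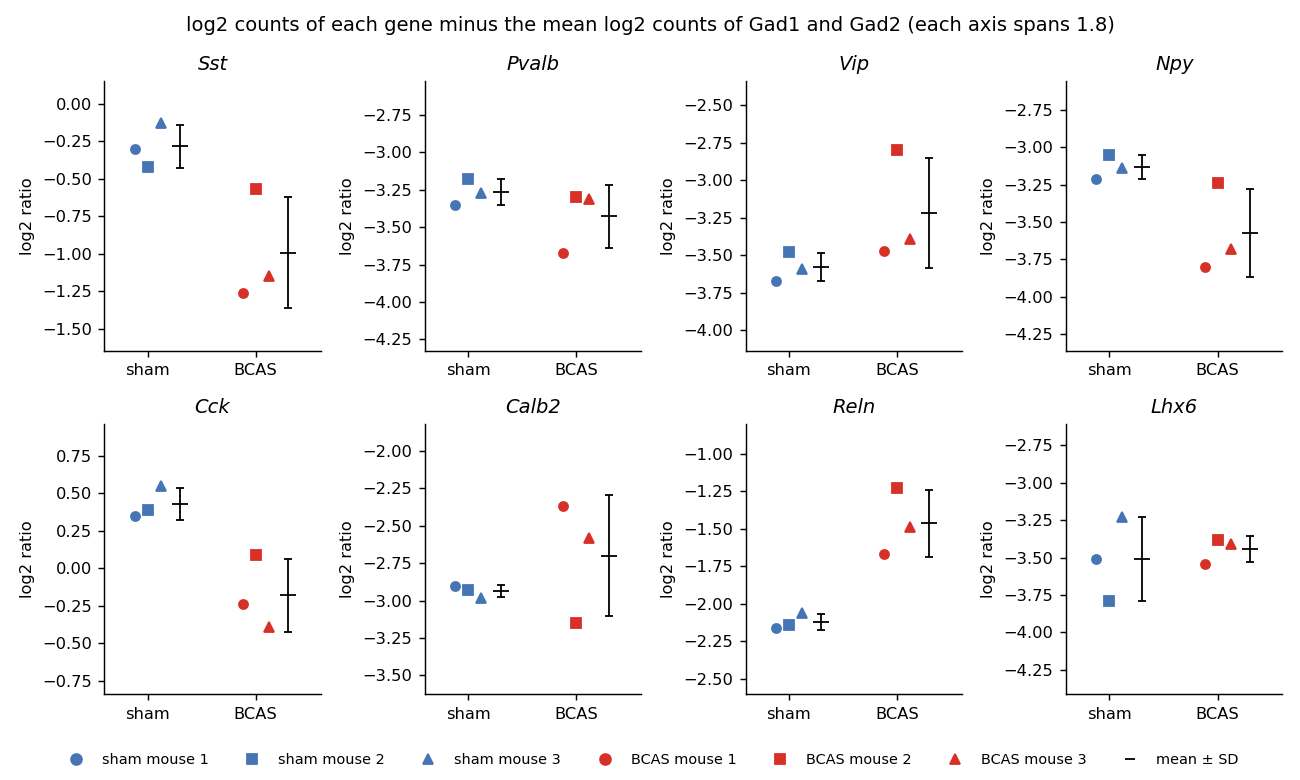
Log2 counts of each subtype gene minus the mean log2 counts of Gad1 and Gad2 in every mouse, with the mean and SD of each group; each axis spans 1.8 log2 units. BCAS mice lie below sham mice for Sst, Npy and Cck and above them for Vip and Reln, and BCAS mouse 2 lies nearest to the sham mice for Sst, Npy and Cck.

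Ratios between subtype genes were compared in the same way. The log2 ratio of Sst to Pvalb was 3.05, 2.76 and 3.14 in sham mice and 2.41, 2.72 and 2.17 in BCAS mice. The groups did not overlap, and the difference was -0.55 (exact permutation P = 0.1, adjusted 0.4 over 8 pairs). The log2 ratio of Sst to Lhx6 was 3.21, 3.38 and 3.10 in sham mice and 2.29, 2.81 and 2.26 in BCAS mice, again without overlap, with a difference of -0.77 (exact permutation P = 0.1, adjusted 0.4). The ratio of Sst to Npy overlapped between the groups, with a difference of -0.27 (exact permutation P = 0.2, adjusted 0.533). So did the ratios of Pvalb to Lhx6, with a difference of -0.23 (exact permutation P = 0.4), and of Vip to Calb2, with a difference of 0.12 (exact permutation P = 1).

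Since pan-neuronal markers fell as well, the libraries were also scaled by the mean log2 count of these 10 markers. Gad1 then had a log2 fold change of 0.07 (SE 0.11, adjusted P = 0.611, edgeR) and Gad2 of 0.15 (SE 0.11, adjusted P = 0.277, edgeR). Sst at -0.60 (SE 0.13, adjusted P = 0.00472, edgeR) and Cck at -0.51 (SE 0.10, adjusted P = 0.0028, edgeR) were lower relative to neuronal markers, as were 0.741% of tested genes. Npy at -0.33 (adjusted P = 0.101, edgeR) and Pvalb at -0.05 (adjusted P = 0.818, edgeR) no longer passed. Reln at 0.77 (adjusted P = 9.57e-04, edgeR) and Vip at 0.47 (adjusted P = 0.0393, edgeR) were higher, as were 50.7% of tested genes. The median of all tested genes on this scale was 0.55, above the value of Vip.

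**Figure D4:**
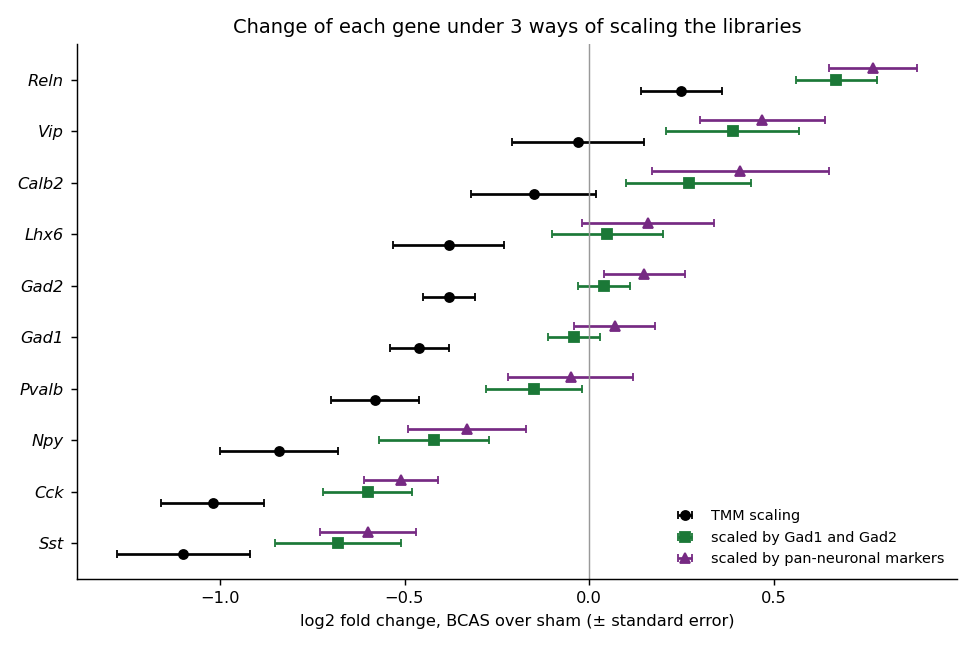
Log2 fold change of each member, BCAS over sham, with its standard error, under TMM scaling (black), scaling by Gad1 and Gad2 (green) and scaling by pan-neuronal markers (purple). Sst and Cck lie below 0 under all 3 scalings, while Gad1, at -0.46 under TMM, lies at 0.07 when scaled by pan-neuronal markers.

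Genes that work with the members were taken from lists by function. Their counts are to be read against the 13.2% of all tested genes that were lower and the 18.0% that were higher, and on the scale of the pan-neuronal markers against 0.741% and 50.7%. In the handling of GABA, 1 of 6 genes was lower and none higher, with a median log2 fold change of -0.06, and 0 were higher at an unadjusted P under 0.05 or with DESeq2 or limma-voom. The lower gene was Slc32a1, the transporter that loads GABA into vesicles. Slc32a1 had 48.7, 56.3 and 65.6 CPM in sham mice and 38.7, 44.3 and 41.3 CPM in BCAS mice, with a log2 fold change of -0.46 (SE 0.11, adjusted P = 0.0157, edgeR). On leaving out sham mouse 3 the lower count was 0, and on leaving out BCAS mouse 2 it was 2. Scaled by pan-neuronal markers 0 were lower and 4 higher, and with no filter beyond 1 count 1 was higher. The log2 ratio of Gad1 to Slc32a1 was 2.79 ± 0.14 in sham and 2.78 ± 0.13 in BCAS mice (exact permutation P = 1). Abat, which breaks GABA down, had a log2 fold change of 0.07 (adjusted P = 0.51, edgeR).

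Of 14 further genes of Pvalb and Sst interneurons, 6 were lower and 1 higher, with a median log2 fold change of -0.40. Crhbp, the binding protein of corticotropin-releasing hormone found in many Sst cells, fell from 31.8, 31.2 and 36.4 CPM in sham mice to 12.2, 19.6 and 13.0 CPM in BCAS mice. Its BCAS mouse 2 was the highest of the group, as for Sst, and its log2 fold change was -1.15 (SE 0.18, adjusted P = 0.00175, edgeR). The peptide precursors Tac1 and Pnoc had log2 fold changes of -0.70 and -0.60 (adjusted P = 0.0305 and 0.0142, edgeR). Elfn1, a synaptic protein of Sst cells, fell by 0.54 on the log2 scale (adjusted P = 0.00309, edgeR). Among potassium channel genes of Pvalb cells, Kcns3 fell by 0.52 and Kcnc2 by 0.49 on the log2 scale (adjusted P = 0.0346 and 0.00817, edgeR). Cox6a2, a cytochrome c oxidase subunit of Pvalb cells, was higher, at 0.94 (adjusted P = 0.011, edgeR). Without sham mouse 3 the lower count was 3. Nearly all lower calls were lost on scaling by pan-neuronal markers, with 1 lower and 2 higher.

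Of 13 further genes of Vip, Cck and neurogliaform interneurons, 2 were lower and none higher, with a median of -0.12. Without an adjustment 1 was higher at a P under 0.05, and 0 were higher with DESeq2 or limma-voom. Cnr1, the cannabinoid receptor of Cck basket cells, had a log2 fold change of -0.64 (SE 0.17, adjusted P = 0.0197, edgeR), and Kit, a receptor tyrosine kinase, of -0.60 (SE 0.13, adjusted P = 0.00776, edgeR). The lower count was 1 without sham mouse 1 or sham mouse 3. Scaled by pan-neuronal markers 0 were lower and 3 higher, and 1 was higher with library totals or halved counts. Ndnf and Lamp5, markers of neurogliaform cells, had log2 fold changes of 0.00 and -0.41 and did not pass the test.

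Of 14 transcription factors of GABAergic lineages other than Lhx6, 1 was lower and 3 were higher, with a median of -0.18. Dlx1, a homeobox factor that interneurons keep in adulthood, fell by 0.54 on the log2 scale (SE 0.11, adjusted P = 0.00532, edgeR). Sox6 was higher at 0.38 and Maf at 0.83 (adjusted P = 0.0257 and 4.28e-04, edgeR). Neither is restricted to interneurons, and Maf is also expressed by microglia, whose 8 markers all rose. The part of microglia in the Maf result was not tested. Without BCAS mouse 2 the lower count was 2, and scaled by pan-neuronal markers 0 were lower and 5 higher.

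Receptors of the peptides and of reelin, with the reelin adaptor Dab1, made up 16 genes, of which 14 were tested and Sstr5 and Cckar had too few counts. Of the 14, 6 were lower and 1 higher, with a median of -0.22. The somatostatin receptors Sstr4 and Sstr3 had log2 fold changes of -0.91 and -0.88 (adjusted P = 0.0055 and 0.00299, edgeR). The other tested somatostatin receptors, Sstr1 at 0.38 and Sstr2 at 0.01, did not pass the test (adjusted P = 0.0698 and 0.968, edgeR). For Sstr1 all BCAS mice lay above all sham mice. The neuropeptide Y receptors Npy2r, Npy5r and Npy1r stood at -0.96, -0.87 and -0.56 (adjusted P = 0.0413, 0.0105 and 0.00441, edgeR). Npy2r spread widely in BCAS mice, with 49.5, 30.4 and 16.7 CPM against 63.3, 65.4 and 59.6 CPM in sham mice. Dab1 fell by 0.47 on the log2 scale (adjusted P = 0.00249, edgeR), while the reelin receptors Vldlr at -0.17 and Lrp8 at 0.03 did not pass the test. Adcyap1r1, a receptor of the VIP family, was higher at 0.24 (adjusted P = 0.0283, edgeR). Without BCAS mouse 3 the higher count was 2, and it was 0 without any one of the sham mice or BCAS mouse 1. Every lower call was lost on scaling by pan-neuronal markers, with 0 lower and 4 higher. With library totals 2 were higher, and with no filter beyond 1 count 0 were.

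Of 10 genes of peptide processing and dense core vesicles, 6 were lower and 1 higher, with a median of -0.52. The granins Chgb, Scg2 and Chga had log2 fold changes of -0.76, -0.74 and -0.54 (adjusted P = 0.00408, 2.89e-04 and 0.00486, edgeR). The prohormone convertases Pcsk1 and Pcsk2 stood at -0.60 and -0.51 (adjusted P = 0.0366 and 0.0125, edgeR), and Scg5, a chaperone of Pcsk2, at -0.58 (adjusted P = 0.00785, edgeR). Scg3 was higher, at 0.35 (adjusted P = 0.00785, edgeR). Here too every lower call was lost on scaling by pan-neuronal markers, with 0 lower and 3 higher.

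**Figure D5:**
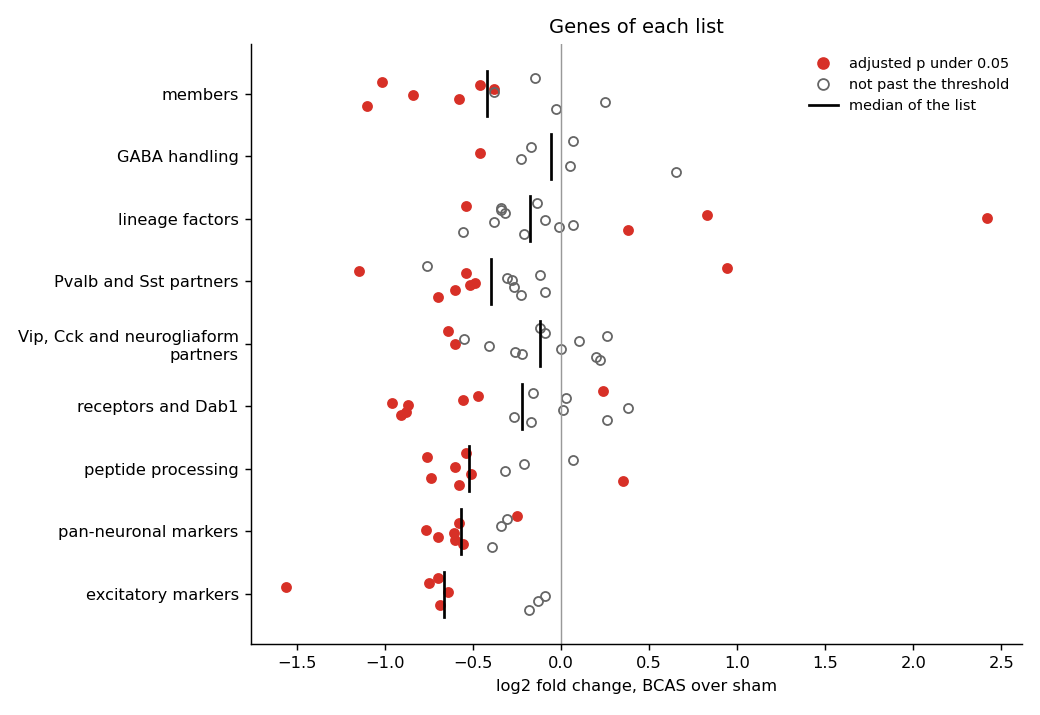
Log2 fold change, BCAS over sham, of each tested gene in the member list, the function lists and the neuronal marker lists, with filled points for an adjusted P under 0.05 and a bar for each list's median. The medians run from -0.67 for excitatory markers to -0.06 for GABA handling, and the members lie at -0.42.

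The genes whose log2 CPM followed the mean of Gad1 and Gad2 most closely over the 6 mice, among 15628 genes with a mean of at least 1 CPM, were Rasgrf1, Syndig1, Ghitm, Cdc42se2 and Elp2. Their Pearson r across the 6 mice ran from 0.9982 to 0.9998, and these points share the group difference and the scaling of the libraries. All 5 were lower in BCAS mice, with log2 fold changes of -0.78 for Rasgrf1, -1.16 for Syndig1, -0.33 for Ghitm, -0.45 for Cdc42se2 and -0.29 for Elp2.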

How the data were processed

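The libraries were made from total RNA with a NEBNext Ultra kit and sequenced as read pairs. The authors, per the labels and the methods, trimmed reads with Trim Galore, aligned them to mm10 with HISAT2, sorted alignments with SAMtools 1.9 and counted reads per gene with featureCounts 1.6.3. The deposited values are raw counts per gene, not normalized. Per the file headers, featureCounts 2.0.3 was run with GENCODE vM20, each mate was counted by itself without regard to strand, and multi-mapping reads were left out. Separate mates make counts look more precise than fragments would, so the counts were also halved. Inside the BCAS tables the columns carry numbers 2 to 4, and the label numbers 1 to 3 are used here. Of 54752 genes, 29 matched no symbol.

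Genes were filtered with filterByExpr, scaled by TMM (factors 0.964 to 1.05) and compared by the quasi-likelihood test of edgeR over all 18617 genes with group alone, and P values were adjusted by the Benjamini-Hochberg method over all of them (R 4.3.3, edgeR 4.0.16, limma 3.58.1, DESeq2 1.42.0). The common biological coefficient of variation was 0.161. Log2 CPM used a prior count of 2. Intervals of counts cover counting error alone. The steps were tested on simulated data. Alternatives were limma-voom, DESeq2, other scalings and filters, halved counts, the replicate number as a block and leaving out each mouse.

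The members and lists were chosen with earlier results of these data known, and the cortical list after values were seen. Named are all members, every called gene of a list with at most 6 called genes, otherwise its 3 highest and 3 lowest called genes, and the 5 genes most like Gad1 and Gad2. Some genes of the lists are counted but not reported by name here. Other genes of the lists that are named were chosen after their values were seen. Promoter sequence was taken from RefSeq, in which 9 of the 10 members had an entry.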

Additional observations from a re-analysis of the deposited data

How the results depend on the processing

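Of 15 alternatives, all left the 6 lower members at 6 or 7 except scaling by pan-neuronal markers, which gave 2 (range 6 to 7 on leaving out 1 mouse). Scaling by pan-neuronal markers turned Gad1 to 0.07, Gad2 to 0.15 and Vip to 0.47, gave 2 higher members in place of 0 and left 0 past both thresholds. With library totals in place of TMM, 1 member was higher (Reln at 0.32, adjusted P = 0.0494, edgeR) and 1 was past both thresholds. Leaving out each mouse in turn gave 0 to 3 members past both thresholds, 1 to 2 members higher than Gad1 and Gad2 and 2 to 3 lower. With no filter beyond 1 count, 2 members were higher than Gad1 and Gad2 (Vip at 0.39, adjusted P = 0.0444, edgeR). Relative to Gad1 and Gad2, Sst (-0.92 to -0.55), Cck (-0.74 to -0.50) and Reln (0.54 to 0.77) passed in all 15 alternatives, and Npy was lost in 7, among them Gad1 alone (-0.38) and Slc32a1 (-0.41) as reference. The causes of these shifts were not tested. With the replicate number as a block, 6 members were lower, 0 higher and 2 past both thresholds, and 3 were lower and 1 higher than Gad1 and Gad2; 1 GABA handling gene and 0 receptors were higher. The residuals of mice with the same number correlated at 0.036, -0.314 and -0.158. Residuals centred within groups of 3 mice cannot settle whether the numbers pair the mice. With 3 mice a group, exact tests cannot go below 0.1, and lists of few or low genes, such as the Cajal-Retzius markers, are limited by their counts.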

Other observations

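Marker lists of other tissue in the hippocampal pieces gave these values. Their counts are to be read against the 18.0% of all tested genes that were higher in BCAS mice and the 13.2% that were lower. Of 6 oligodendrocyte markers 0 passed the edgeR test, with a median log2 fold change of 0.13 (1 higher at an unadjusted P under 0.05, 1 with DESeq2 and 0 with limma-voom). Of 5 endothelial markers 3 rose, with a median of 0.49. Of 5 choroid plexus markers 0 passed with edgeR, DESeq2 or limma-voom or at an unadjusted P under 0.05, and their median was 0.88. Of 4 thalamus markers Lef1 and Prkcd rose, by 1.03 and 0.91 on the log2 scale, and 1 passed without sham mouse 2 or sham mouse 3. Of 5 striatum markers 1 rose, Adora2a at 0.81, and 0 passed without any one of the sham mice or BCAS mouse 3 (2 without BCAS mouse 1). Of the 4 cortical layer markers 1 fell, Fezf2 at -0.56 (adjusted P = 0.00542, edgeR), and 0 passed in the other direction (1 at an unadjusted P under 0.05).

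BCAS mouse 2 was the highest BCAS mouse for Sst, Pvalb, Vip, Npy, Cck, Reln and Lhx6, and it was not the highest for Gad1, Gad2 or Calb2. It also had the highest summed cortical layer markers of all 6 mice, 142 CPM, and the lowest summed choroid plexus markers, 40.3 CPM. The part of these markers in its interneuron gene values was not tested.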
